A study of Chlorocebus aethiops with 3 samples.

Results

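The mRNAs described here belong to genes of DNA replication and S phase: the subunits of the origin recognition complex (ORC), the minichromosome maintenance helicase (MCM), GINS, the clamp loader (RFC), replication protein A (RPA) and the replicative DNA polymerases, with their partners, enzymes of nucleotide synthesis, and the regulators E2F1 and RB1. They were listed as 46 human RefSeq ids of 44 genes, and a spot was taken as a member where the array files give it 1 of these ids. A probe was present for 41 of the 46 ids, among 32695 ids on the array. The other 5 ids, those of MCM7, RFC5 and DUT and an additional id each of MCM10 and RFC2, had no probe spot in the tables used and were not analysed here. The files pair probes with ids and not with gene symbols, so the symbols below are those of human RefSeq naming for the listed ids.

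RNA came from the heavy polysome fractions of COS-7 cells, which carry the mRNAs loaded with many ribosomes. COS-7 is an established line of fibroblast-like cells from African green monkey kidney that expresses the large T antigen of SV40, a viral protein that binds RB and drives cells into S phase. Test cells were transfected with siRNAs (0.5 nM) aimed at the coding region of human RNA helicase A (RHA, gene DHX9), and control cells with scrambled RHA siRNAs. Both were transfected, split and transfected again, and their cytoplasmic lysates were separated on sucrose gradients of 15% to 45%. Knockdown RNA in Cy5 and control RNA in Cy3 were hybridised together on 3 Agilent arrays of human probes, 1 array for each biological replicate, all on 1 slide and in the same dye orientation, so that dye and slide cannot be told apart from the knockdown.

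Replication begins when ORC, CDC6 and CDT1 load MCM helicases onto origins, a step called licensing that geminin (GMNN) blocks once S phase has begun. The kinase CDC7 with its activator DBF4, and the factors CDC45, GINS and MCM10, then turn the loaded MCM ring into an active helicase. DNA polymerase alpha with primase starts each strand, RFC loads the sliding clamp PCNA for polymerases delta and epsilon, RPA coats single-stranded DNA, and FEN1 and LIG1 process and join Okazaki fragments. Many of these genes are transcribed under E2F factors, which RB1 restrains.

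On the 3 arrays, 37.5% to 50.7% of the 41000 probes were well above background in Cy3 and 45.5% to 53.1% in Cy5, and no probe spot was saturated. Replicate 3 was the brightest array. For DHX9, the brightest of 3 probes gave log2 ratios of -0.041, -0.20 and -0.60 on replicates 1, 2 and 3, averaging -0.28 ± 0.29 (SD, n = 3), and did not pass the test (limma adjusted p = 0.221). With centring on all probes in place of loess it was at 0.26. The files do not place the siRNA sites relative to the probe, and the groups are named after the labels. How mismatches between human probes and monkey RNA bear on the signals was not tested. In heavy polysome RNA, a change of an mRNA's amount and a change of its ribosome loading cannot be told apart, nor can fewer cells in S phase and less of the mRNA in each cell, and no total RNA was analysed here.

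Of the 41 ids with a probe, 39 (95.1%) were tested, because the probe cleared background well in 1 or both channels of all 3 arrays, where 44.4% of all ids on the array were. The probes of POLE and RPA1 were not well above background in either channel of any array, and no ratio is given for them. ORC1, ORC2 and POLE2 were well above background in Cy5 on 3 arrays and in Cy3 on 1, so their ratios rest on dim control signals. They entered the test through the knockdown channel alone. All ratios below are log2 of knockdown over control after loess normalization of each array, each id measured by its brightest probe. A positive value means more of the mRNA in heavy polysomes of knockdown cells, relative to probes of like brightness. Folds and shares of the control level are the same ratios on a linear scale. They too are relative to probes of like brightness and are not absolute amounts.

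After knockdown, 4 replication mRNAs rose in heavy polysomes (ORC6, POLA1, POLD2 and E2F1) and 5 fell (TK1, CDT1, FEN1, RFC4 and LIG1), at a limma adjusted p under 0.05 over 14522 tested ids. Of these 9, RFC4 and LIG1 turned to 0.046 and 0.12 when each array was centred on the median of all probes in place of loess. The 9 calls are 23.1% of the 39 tested members, where 19.2% of all tested ids were called. In this setting the share called among the members thus lay near the background. By direction, 10.3% of the members rose against a background of 9.89%, and 12.8% fell against 9.32%. At an unadjusted p under 0.05 there were 15 of 39 members, where 35.7% of all tested ids had such a p. The median log2 ratio of the 39 was 0.054 and that of all tested ids 0.010, with 21 members above 0 and 18 below. The 21 include ORC1, ORC2 and POLE2, which passed the filter through the knockdown channel alone. Where both channels had to be above background, 18 of 36 members lay above 0. Their median was then -0.021, and that of all tested ids -0.039. The SD of the mean log2 ratios among members was 0.48 and that among all tested ids 0.47. The changes thus ran in both directions, and the median of the members was 0.039, -0.016 and -0.032 on replicates 1, 2 and 3, with 20, 19 and 18 of 39 members above 0.

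**Figure D1:**
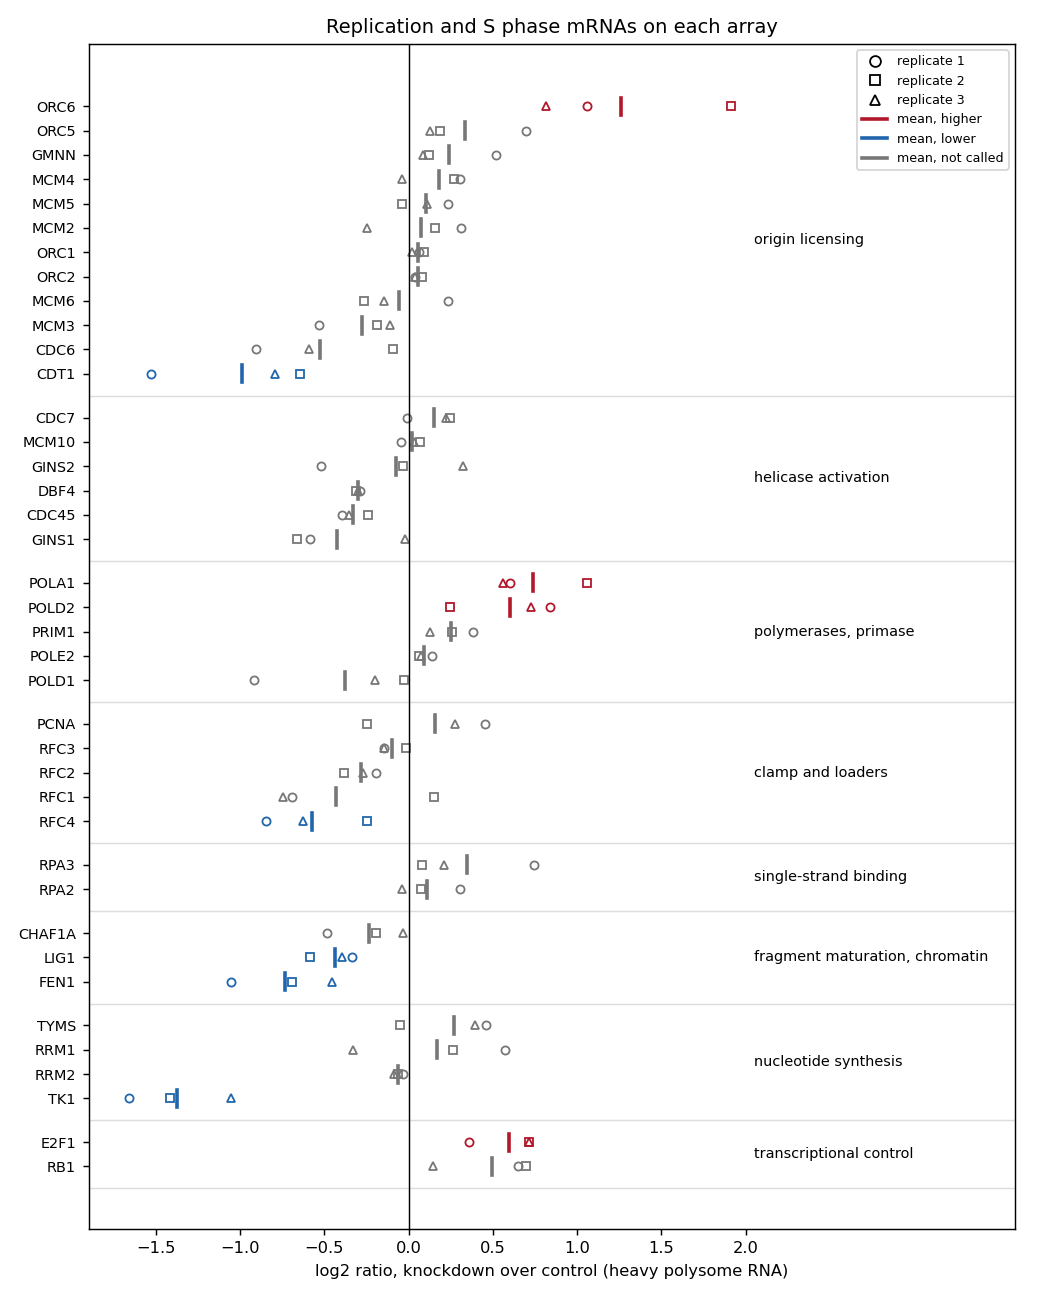
Log2 ratios of knockdown over control in heavy polysome RNA for the 39 tested replication and S phase mRNAs, grouped by role. Each open symbol is 1 array and each bar the mean of 3; red and blue members passed the test (4 higher, 5 lower, limma adjusted p under 0.05). The symbols of TK1 and CDT1 all lie below -0.6 and those of ORC6 above 0.8.

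The direction of the smaller ratios depended on where the zero was set. With each array centred on the median of all probes, 8 members were called higher and none lower by limma. Over all 14522 tested ids, 2765 were called higher in that setting and 45 lower, so the calls ran upward for ids in general. Below 0 at an unadjusted p under 0.05 there was 1 member. The median of the members was 0.33, where that of all tested ids was 0.32. With centring on the tested probes, 6 were called higher and 2 lower (FEN1 and TK1), with a median of 0.012 against -0.0036 for all tested ids. Of all tested ids, 2448 were called higher with that centring and 852 lower. In both settings ORC6, POLA1, POLD2 and E2F1 were among the members called higher. With Agilent's processed signals 3 were called higher (ORC6, POLA1 and POLD2) and 3 lower (CDT1, FEN1 and TK1). These are 15.4% of the members, where 28.1% of all tested ids were called, so the members' share lay below the background there.

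**Figure D2:**
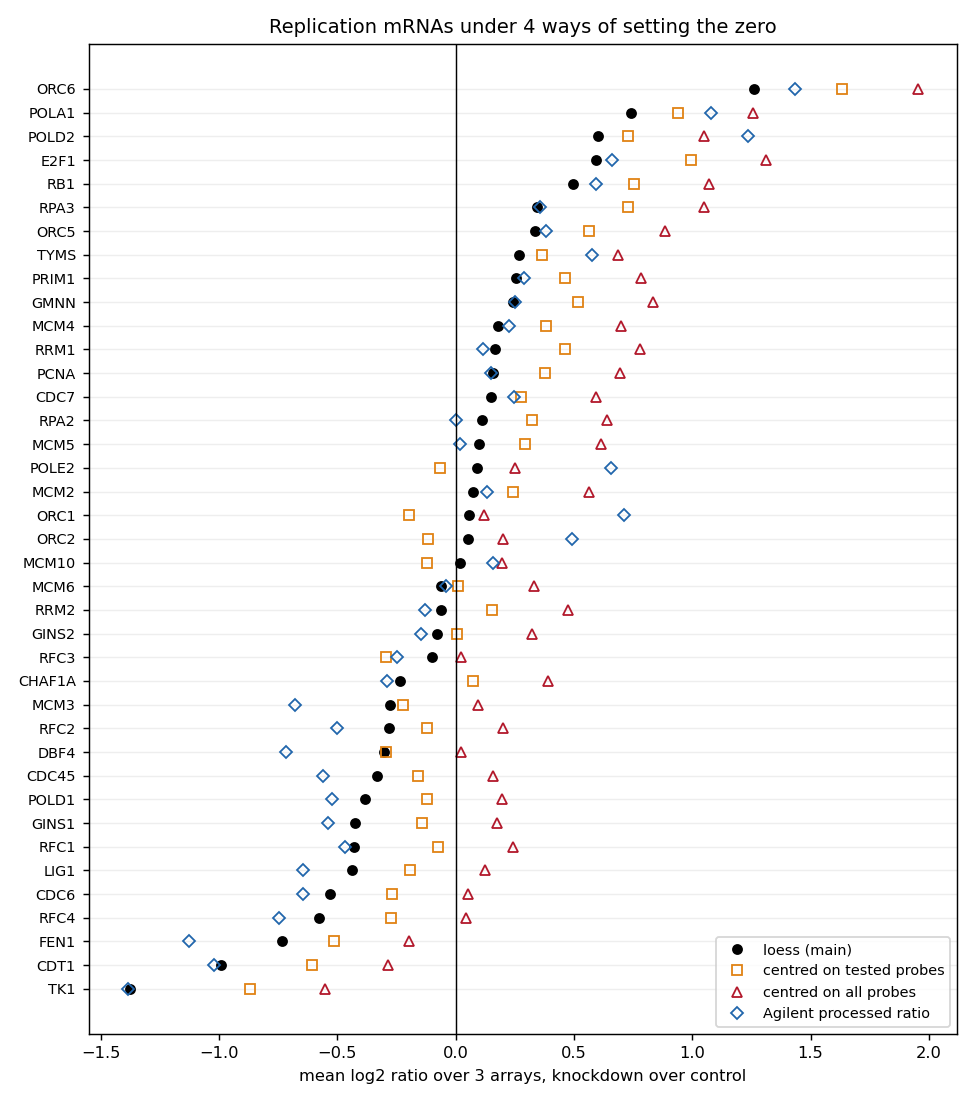
Mean log2 ratio over 3 arrays of each tested member under loess normalization (black), centring on the tested probes (orange), centring on all probes (red) and Agilent's processed signals (blue). Centring on all probes moves the members to the right: 36 of 39 lie above 0, against 21 with loess, and TK1, CDT1 and FEN1 alone stay below.

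All 9 called members had the same sign on all 3 arrays, and so had 18 of the 30 that were not called. The 18 include ORC1, ORC2 and POLE2, which passed the filter through the knockdown channel alone. Over all 39 the share was 69.2%, where 58.6% of all tested ids had 1 sign. The median SD between arrays was 0.26 for the members and 0.20 for all tested ids, and the median half-width of the members' 95% interval was 0.34, so that for most members much smaller changes were not detectable with 3 arrays. The smallest called ratio was 0.44 in size, and the largest that was not called 0.53. Without replicate 2, limma called no member and no other id, with 11 members and 3442 ids at an unadjusted p under 0.05. Without replicate 1 the calls of POLD2, FEN1, RFC4 and LIG1 were lost, and without replicate 3 those of E2F1, POLD2, RFC4 and LIG1.

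**Figure D3:**
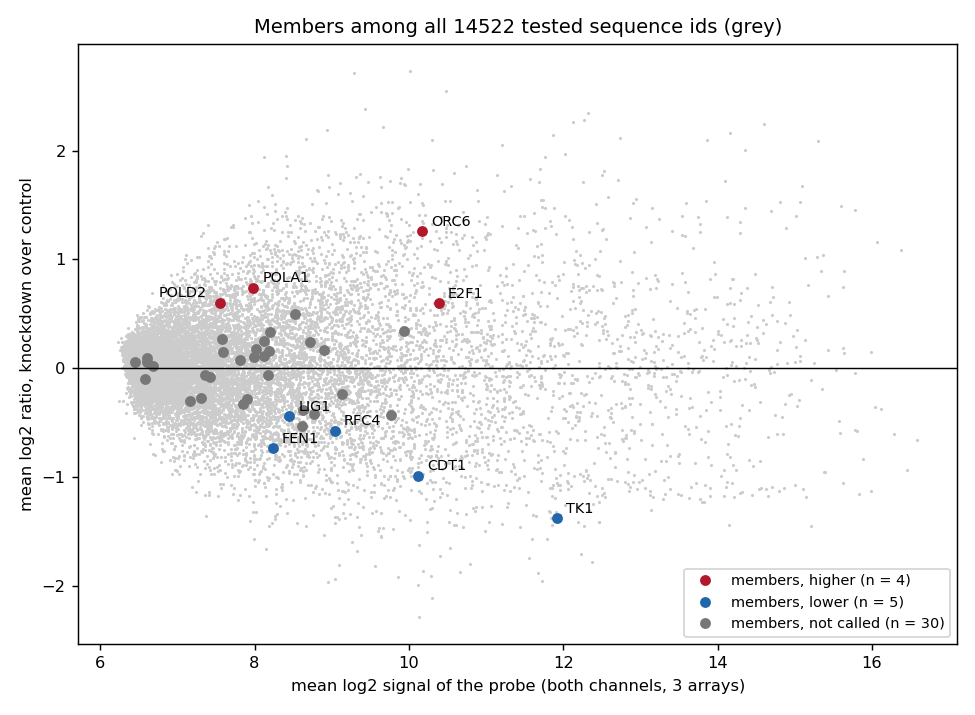
Mean log2 ratio against mean log2 signal over both channels and 3 arrays for all 14522 tested ids (grey) and the 39 tested members (red, 4 higher; blue, 5 lower; dark grey, 30 not called). The members lie on both sides of 0, with TK1 at a log2 ratio of -1.38 as the lowest and ORC6 at 1.26 as the highest.

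Among the licensing genes, CDT1 fell, ORC6 rose by its brighter probe, and the other 10 of 12 tested did not pass. CDT1 (NM_030928), the factor that brings MCM to origins and is degraded once S phase starts, was at -1.53, -0.65 and -0.80 (log2 ratios of replicates 1, 2 and 3, in this order throughout). It was below 0 on every array, averaging -0.99 ± 0.47 (SD, n = 3), which is 0.504 of the control level (limma adjusted p = 0.0289). Its scanner signals were 1124, 468 and 1731 in Cy3 and 741, 880 and 2780 in Cy5, while for the median probe Cy3 read 31, 30 and 37 on these arrays and Cy5 read 71.5, 71.5 and 83.5. In raw signal, Cy5 thus read above Cy3 for the median probe on every array. The loess ratio of CDT1 is read against probes of like brightness and not against that median. The dimmer second probe of CDT1 gave -0.37, -0.32 and -0.42, below 0 on every array as well, averaging -0.37 ± 0.051 (SD, n = 3; limma adjusted p = 0.0530 over all tested probes). The call of CDT1 was lost without replicate 2 (limma adjusted p = 0.122) and with no filter on dim probes (limma adjusted p = 0.0739). With centring in place of loess it was lost too, at a log2 ratio of -0.61 on the tested probes (limma adjusted p = 0.0869) and -0.29 on all probes (limma adjusted p = 0.508).

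GMNN (NM_015895), the inhibitor of CDT1, lay on the other side of 0. Its log2 ratios were 0.52, 0.12 and 0.087, averaging 0.24 ± 0.24 (SD, n = 3), and it did not pass (limma adjusted p = 0.244). On each array the ratio of CDT1 lay below that of GMNN, and the difference between the genes was not tested. CDC6 (NM_001254), the ATPase that loads MCM together with CDT1, had log2 ratios of -0.90, -0.094 and -0.59. All 3 were below 0, replicate 2 by little, and the mean of -0.53 ± 0.41 (SD, n = 3) missed the threshold (limma adjusted p = 0.0933, 95% interval -0.97 to -0.090). With the values of the authors' deposited table CDC6 passed, at a log2 ratio of -0.58 (limma adjusted p = 0.0468). In that setting 4 members were called higher and 6 lower. These are 25.6% of the members, where 25.7% of all tested ids were called. CDC6 was called in 1 of 16 alternative settings.

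The ORC subunits mark origins for licensing. ORC6 (NM_014321), its smallest subunit, had log2 ratios of 1.06, 1.91 and 0.81, all above 0, with replicate 2 the highest. The mean of 1.26 ± 0.58 (SD, n = 3) is 2.40-fold (limma adjusted p = 0.0253), above 98.6% of all tested ids. The second ORC6 probe did not share this change: it gave 0.34, -0.54 and -0.40, averaging -0.20 ± 0.47 (SD, n = 3), and did not pass (limma adjusted p = 0.510 over all tested probes). It cleared background well on all 3 arrays in both channels, and replicate 2 held the highest value of the brighter probe and the lowest of the dimmer. The rise of ORC6 is therefore the reading of 1 of its 2 probes, and why the probes differ was not tested. The mean of both probes was 0.53 (limma adjusted p = 0.0497).

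ORC5 (NM_002553) had 0.70, 0.19 and 0.13, averaging 0.34 ± 0.31 (SD, n = 3), above 0 on each array and short of the threshold (limma adjusted p = 0.171). ORC1 and ORC2 lay close to 0, with means of 0.057 ± 0.034 and 0.054 ± 0.025 (SD, n = 3) at dim signals, where the offset of 50 used in background correction draws ratios toward 0. With Agilent's processed signals in place of that correction, the log2 ratios of ORC1 and ORC2 were 0.71 and 0.49, and neither passed. In the main setting the means of ORC5 and of the brighter ORC6 probe lay above 0. ORC1 and ORC2 passed the filter through the knockdown channel alone, so their side of 0 is not counted with these. With centring on the tested probes ORC1 and ORC2 were at -0.20 and -0.12.

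Of the MCM helicase subunits, none passed. The 5 tested (MCM2 to MCM6) had no limma adjusted p, and no unadjusted p, under 0.05. Their mean log2 ratios ran from -0.28 for MCM3 to 0.18 for MCM4, with a median of 0.073, and MCM3 alone had the same sign on every array. MCM3 had -0.53, -0.19 and -0.11, averaging -0.28 ± 0.22 (SD, n = 3; limma adjusted p = 0.180). MCM4 and MCM5 were at 0.18 ± 0.19 and 0.10 ± 0.14, MCM2 at 0.073 ± 0.29 and MCM6 at -0.060 ± 0.26 (SD, n = 3). For MCM2 and MCM6, replicate 1 was the highest array, at 0.31 and 0.23, while replicate 3 was at -0.25 and -0.15. The 95% intervals of the 5 subunits lay between -0.59 and 0.48 in the main setting. The offset of the background correction shrinks dim ratios, so these intervals cannot exclude a 2-fold change of the mRNAs. With an offset of 0 and with Agilent's processed signals, MCM3 was at -0.50 and -0.68. MCM5 was smaller in these settings, at 0.097 and 0.019, and MCM6 was at -0.084 and -0.042. None of the 5 passed in either.

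None of the 6 tested genes of helicase activation passed by limma, and 3 had an unadjusted p under 0.05, as had 35.7% of all tested ids. GINS1 (NM_021067), a subunit of the GINS complex that holds the active helicase together, had log2 ratios of -0.59, -0.66 and -0.022. Replicates 1 and 2 were low and replicate 3 was near 0, and the mean was -0.42 ± 0.35 (SD, n = 3; limma adjusted p = 0.122). Without replicate 3 its log2 ratio was -0.62, with a limma adjusted p of 0.0338. Without replicates 1 and 2 it did not pass (limma adjusted p = 0.287 and 0.435). GINS2, from the same complex, had -0.52, -0.034 and 0.32, arrays on both sides of 0, averaging -0.077 ± 0.42 (SD, n = 3).

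CDC45 (NM_003504), the third component of the active helicase, was at -0.40, -0.24 and -0.35. These 3 values lay close together below 0, averaging -0.33 ± 0.079 (SD, n = 3), which is 0.795 of the control level (limma adjusted p = 0.0778). DBF4 (NM_006716), the activator of CDC7, was the most even member across arrays, at -0.29, -0.31 and -0.30, averaging -0.30 ± 0.010 (SD, n = 3; limma adjusted p = 0.0884). Its probe is printed as 10 spots, and the SD between these spots within an array was 0.096, 0.042 and 0.026. The kinase CDC7 itself had -0.012, 0.24 and 0.22, averaging 0.15 ± 0.14 (SD, n = 3), and MCM10 was at 0.018 ± 0.058 (SD, n = 3), with neither past the threshold.

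In the polymerase group, 2 of 5 tested mRNAs rose and none fell by limma, nor was any below 0 at an unadjusted p under 0.05. Over all tested ids 9.89% rose and 9.32% fell, and a count over 5 genes is too small to set against these shares. POLA1 (NM_016937), the catalytic subunit of polymerase alpha, had log2 ratios of 0.60, 1.06 and 0.56. All lay above 0, averaging 0.74 ± 0.28 (SD, n = 3), which is 1.67-fold (limma adjusted p = 0.0272). The call of POLA1 was lost without replicate 2 (limma adjusted p = 0.135) and with no filter on dim probes (limma adjusted p = 0.0542). PRIM1 (NM_000946), the primase subunit that makes the RNA primers in the same complex, had 0.38, 0.26 and 0.12, averaging 0.25 ± 0.13 (SD, n = 3), above 0 on every array without passing (limma adjusted p = 0.159).

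The polymerase delta subunits lay on opposite sides of 0. POLD2 (NM_006230), an accessory subunit, had 0.84, 0.24 and 0.73, averaging 0.60 ± 0.32 (SD, n = 3), which is 1.52-fold (limma adjusted p = 0.0464). The catalytic subunit POLD1 (NM_002691) had -0.92, -0.026 and -0.20, averaging -0.38 ± 0.47 (SD, n = 3), and did not pass (limma adjusted p = 0.224). The values of POLD1 and POLD2 did not overlap, with POLD2 above 0 and POLD1 below 0 on every array, and the difference between them was not tested. With centring on all probes both were above 0, POLD1 at 0.20. The second probe of POLD1 followed the first, at -0.69, -0.12 and -0.11, with replicate 1 the lowest for both. The call of POLD2 was lost when replicate 1, 2 or 3 was left out, with limma adjusted p of 0.116, 0.117 and 0.0993. POLE2, a subunit of polymerase epsilon, was at 0.090 ± 0.042 (SD, n = 3) at dim signals.

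The clamp loader mRNAs lay below 0 together with loess and above 0 with centring on all probes, and RFC4 passed with loess. RFC4 (NM_002916), a small subunit of the loader, had log2 ratios of -0.85, -0.25 and -0.63, averaging -0.57 ± 0.30 (SD, n = 3), which is 0.671 of the control level (limma adjusted p = 0.0492). RFC2 (NM_181471) had -0.20, -0.38 and -0.27, averaging -0.28 ± 0.094 (SD, n = 3; limma adjusted p = 0.115), and RFC3 was at -0.10 ± 0.074 (SD, n = 3). The large subunit RFC1 (NM_002913) had -0.69, 0.15 and -0.75, so that replicate 2 stood on the other side of 0 from the rest, and its mean was -0.43 ± 0.50 (SD, n = 3; limma adjusted p = 0.195). The second RFC1 probe was at -0.019, 0.21 and -0.36, with replicate 2 again above 0.

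All 4 tested RFC mRNAs had means below 0, with a median of -0.36, where the median of all tested ids was 0.010. RFC3 and the second RFC1 probe averaged -0.10 and -0.056. A count over 4 genes is too small to set against all tested ids. With each array centred on the median of all probes in place of loess, all 4 turned above 0, from 0.024 for RFC3 to 0.24 for RFC1, while the median of all tested ids moved to 0.32. The call of RFC4 was lost when any 1 replicate was left out, with limma adjusted p of 0.121, 0.122 and 0.0970 without replicates 1, 2 and 3. PCNA (NM_002592), the clamp that RFC loads, had 0.45, -0.25 and 0.28, with replicate 2 below 0 and the others above, averaging 0.16 ± 0.36 (SD, n = 3; limma adjusted p = 0.525). The PCNA probe is printed as 10 spots whose SD within an array was 0.11, 0.041 and 0.055.

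RPA2 and RPA3, subunits of the single-strand binding protein, did not pass by limma and had no unadjusted p under 0.05. RPA3 (NM_002947), the smallest subunit, had 0.74, 0.081 and 0.21, averaging 0.34 ± 0.35 (SD, n = 3; limma adjusted p = 0.186), above 0 on every array with replicate 1 the highest. RPA2 was at 0.11 ± 0.18 (SD, n = 3). RPA3 passed with either way of centring the arrays without loess, at log2 ratios of 1.05 and 0.73. In these settings 2765 and 2448 of all tested ids were called higher, and 45 and 852 lower. RPA3 was called in 2 of 16 alternative settings.

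Both enzymes that finish Okazaki fragments fell with loess, while with centring on all probes LIG1 turned to 0.12 and FEN1 was at -0.20. FEN1 (NM_004111), the nuclease that trims the displaced flap, had -1.05, -0.69 and -0.45, all below 0, averaging -0.73 ± 0.30 (SD, n = 3), which is 0.602 of the control level (limma adjusted p = 0.0292). The dimmer FEN1 probe, well above background in Cy3 on 2 of 3 arrays, gave 0.12, -0.065 and -0.17, averaging -0.037 ± 0.14 (SD, n = 3; limma adjusted p = 0.834 over all tested probes), so the fall was the reading of the brighter probe. LIG1 (NM_000234), the ligase that seals the fragments, had -0.34, -0.58 and -0.40, averaging -0.44 ± 0.13 (SD, n = 3), which is 0.737 of the control level (limma adjusted p = 0.0453). LIG1 kept its call in 6 of 16 alternative settings and FEN1 in 12 of 16. Leaving out replicate 1 or 2 ended both calls, with limma adjusted p of 0.0557 and 0.153 for FEN1 and 0.0733 and 0.233 for LIG1, and without replicate 3 LIG1 had 0.0906. CHAF1A (NM_005483), the large subunit of the factor that assembles nucleosomes behind the fork, had -0.48, -0.19 and -0.032, averaging -0.24 ± 0.23 (SD, n = 3; limma adjusted p = 0.243).

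**Figure D4:**
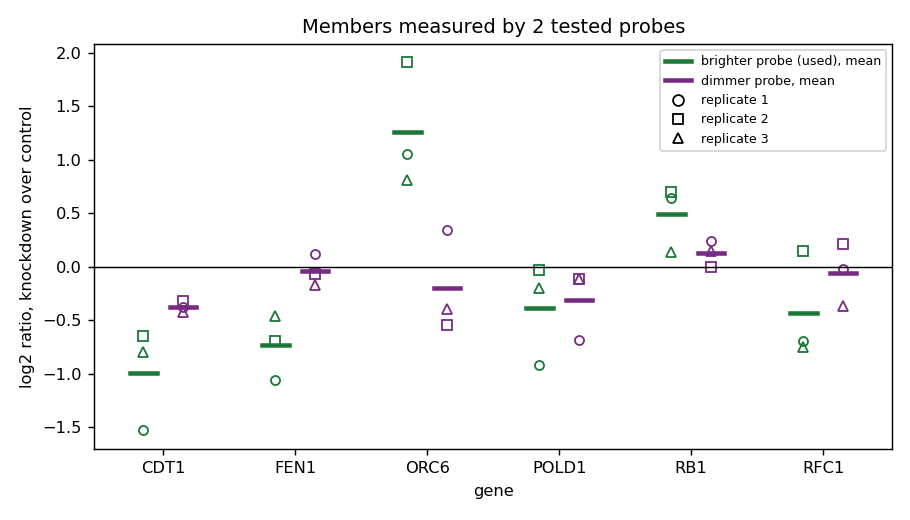
Log2 ratios of knockdown over control on each array for the 6 members with 2 tested probes, the brighter in green and the dimmer in purple, with bars at the mean of 3 arrays. The probes of ORC6 have means on opposite sides of 0 (1.26 and -0.20), and for each of the 6 the dimmer probe lies nearer 0.

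Second probes were available for 9 members and were tested for 6. The means of both probes had the same sign in 5 of the 6 (CDT1, FEN1, POLD1, RB1 and RFC1) and opposite signs in 1 (ORC6). The dimmer probe gave the smaller ratio in size for each of the 6. The offset of the background correction shrinks dim ratios, and how much of the difference it accounts for was not tested.

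Among the nucleotide synthesis genes, TK1 fell and the other 3 of 4 tested did not pass. TK1 (NM_003258), the thymidine kinase of the salvage pathway whose level climbs in S phase, had log2 ratios of -1.66, -1.42 and -1.05. It was far below 0 on every array, averaging -1.38 ± 0.31 (SD, n = 3), which is 0.385 of the control level (limma adjusted p = 0.0144, 95% interval -1.74 to -1.01). No more than 0.434% of all tested ids had a lower mean. Its signals were strong, with 3560, 2118 and 7278 in Cy3 and 2107, 2506 and 11350 in Cy5. TK1 stayed below 0 in 16 of 16 alternative settings, from -1.54 to -0.55. Several of these could not have turned it. Changing the filter alone left its ratio as it was, and leaving out an array cannot turn a gene below 0 on every array. It was past the threshold in 14, the exceptions being the fit without replicate 2 (limma adjusted p = 0.116) and centring on all probes (limma adjusted p = 0.124).

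Thymidylate synthase TYMS (NM_001071), which makes thymidylate by the de novo route, was at 0.46, -0.054 and 0.39. Its mean of 0.27 ± 0.28 (SD, n = 3) lay on the other side of 0 from that of TK1 and did not pass (limma adjusted p = 0.233). The ribonucleotide reductase subunits RRM1 and RRM2 make deoxynucleotides. RRM2 (NM_001034), the subunit limiting in S phase, had -0.034, -0.061 and -0.089, averaging -0.062 ± 0.028 (SD, n = 3; limma adjusted p = 0.689, 95% interval -0.31 to 0.18). RRM1 (NM_001033) had 0.57, 0.26 and -0.33, arrays on both sides of 0, averaging 0.17 ± 0.46 (SD, n = 3; limma adjusted p = 0.567).

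The regulators of S phase transcription both lay above 0, and E2F1 passed. E2F1 (NM_005225), the transcription factor that activates many of the genes above, had log2 ratios of 0.36, 0.72 and 0.71. The mean of 0.60 ± 0.21 (SD, n = 3) is 1.51-fold (limma adjusted p = 0.0308). Its probe is printed as 10 spots, with an SD between spots of 0.056, 0.026 and 0.058 on replicates 1, 2 and 3. RB1 (NM_000321), which holds E2F factors inactive, had 0.65, 0.70 and 0.14, all above 0 with replicate 3 the lowest. The RB1 mean of 0.50 ± 0.31 (SD, n = 3), which is 1.41-fold, missed the threshold (limma adjusted p = 0.0712, 95% interval 0.13 to 0.86). Without replicate 3, RB1 was at 0.67 with a limma adjusted p of 0.0272. Without replicates 1 and 2 it did not pass (limma adjusted p = 0.178 and 0.307). The second RB1 probe had a mean of 0.13 ± 0.12 (SD, n = 3). Without replicate 2 or 3 the call of E2F1 was lost, with limma adjusted p of 0.178 and 0.0695. The call was also lost with an offset of 0, Agilent's processed signals, no filter and an intensity trend. E2F1 kept it in 10 of 16 alternative settings.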

How the data were processed

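Per the file headers, the deposited intensity values are median spot and background signals extracted with Agilent Feature Extraction 10.9.1.1 (design 014850), beside processed signals and a log10 ratio. The submitters' processing notes also name limma, without settings. Log2 ratios in the authors' deposited value table have no stated scale, centring or direction; they followed loess ratios of Cy5 over Cy3 without background correction (Pearson's r at least 0.994 on each array, across probes) with medians of 0 to 0.01. The table served as an alternative.

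Here, in R 4.3.3 with limma 3.58.1, signals were corrected with normexp (offset 50) and loess-normalized within arrays, with control spots at weight 0. Flagged spots (142 to 150 of 43376) were left out and spots of 1 probe averaged; a probe was above background on an array where 50% or more of its spots were. The brightest probe of each id was tested with lmFit and eBayes, 2-sided, with Benjamini-Hochberg adjustment over 14522 ids. An exact sign-flip test of 3 arrays cannot go below p = 0.25. The script was tested on simulated data.

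The members and lists were chosen with earlier results of these data known. Members past the threshold, the 3 highest and 3 lowest others, CDC6, CDT1, PCNA, RRM2, E2F1 and RB1 were to be given on every array; further members were added after their values were seen. A list of other replication genes, cell type markers and promoter motifs were planned and not computed, since no table pairing symbols or sequences with the ids was used here.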

Additional observations from a re-analysis of the deposited data

How the results depend on the processing

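The 9 called members kept their side of 0 in all but 2 of 144 values over 16 alternatives, and lost the call in 41 others. The exceptions, with centring on all probes, were RFC4 at 0.046 and LIG1 at 0.12. Many of the other values had no room to change side. Alternatives that changed only the filter or the intensity trend reused the same ratios. Leaving out, reweighting or rescaling arrays cannot turn a member with the same sign on every array. The members called higher and lower numbered 4 and 5. They became 8 and 0 with centring on all probes, 6 and 2 on the tested probes and 3 and 3 with Agilent's processed signals. With no filter, where 32695 ids were tested, they were 0 and 2 (TK1 and DBF4). In these settings 20.5%, 20.5%, 15.4% and 5.13% of the members were called, where the shares of all tested ids were 19.3%, 22.7%, 28.1% and 5.05%. With an offset of 0, and with an intensity trend in limma, 17.9% of the members were called. Of all tested ids, 29.6% and 30.8% were. Leaving out a replicate gave 0 to 3 higher and 0 to 4 lower, the 0 without replicate 2. Without replicates 1 and 3, 12.8% and 17.9% of the members were called, where 11.8% and 18.5% of all tested ids were. The members' median log2 ratio of 0.054 became 0.097 with an offset of 0, 0.33 and 0.012 with centring on all and on tested probes, -0.021 where both channels had to be above background, and 0.013 to 0.061 with a replicate left out. The DHX9 ratio became 0.26 with centring on all probes.

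Members that were not called changed sign in 26 of 477 values. With centring on all probes RFC3 was at 0.024, DBF4 0.024, CDC6 0.051, MCM3 0.096, CDC45 0.16, GINS1 0.18, POLD1 0.20, RFC2 0.20, RFC1 0.24, GINS2 0.32, MCM6 0.33, CHAF1A 0.39 and RRM2 0.47. With centring on tested probes POLE2 was at -0.067, ORC2 -0.12, MCM10 -0.12, ORC1 -0.20, GINS2 0.0052, MCM6 0.012, CHAF1A 0.074 and RRM2 0.15. With a replicate left out RRM1 ran from -0.034 to 0.42, MCM2 from -0.046 to 0.23, GINS2 from -0.28 to 0.14, MCM10 from -0.0081 to 0.049 and MCM6 from -0.21 to 0.042. Beyond the number of ids tested and the shift of the zero, the cause was not tested. The number of arrays limits the precision. The test is itself paired, since every ratio sets knockdown against control within an array, and no further block was fitted.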
